A study of Mus musculus with 153 samples.

Results

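Chemokines are small secreted proteins that guide leukocytes along concentration gradients, and their receptors are G protein-coupled receptors on the guided cells. In skin, keratinocytes, fibroblasts, endothelial cells and resident immune cells all secrete chemokines. Inflammatory ligands recruit neutrophils and monocytes after damage, while homeostatic ligands position dendritic cells and lymphocytes in healthy tissue. The family was read here from arrays of tail skin by symbol: genes named Ccl, Cxcl, Ccr or Cxcr with a number, with Cx3cl1, Cx3cr1, Xcl1 and Xcr1. This gave 52 of the 18810 genes with a probe set of their own, 34 ligands and 18 receptors. Ccl21a, Ccl21b, Ccl21c and Ccl27a were represented only on probe sets shared by several genes and were left out.

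The tail skin came from untreated backcross mice aged 8 weeks, snap frozen, with 1 array per mouse. Mus spretus males had been mated to FVB/N females with no intact Hras (-/-), and the F1 females were mated to FVB/N males that were Hras -/- or -/+. Each backcross mouse therefore carried its own mixture of FVB/N and Mus spretus chromosomes. Mice labelled WT (Hras +/+) and HET (Hras +/-) were compared. By the cross as described, a +/+ mouse has its maternal copy of Hras from Mus spretus, while a +/- mouse may not. A genotype difference and strain origin near Hras therefore cannot be told apart. Hras encodes a small GTPase of growth factor signalling. Of the 153 mice, 2 WT males of plate 2 carry an outlier label and were left out. The mice compared were 62 males and 52 females labelled WT and 19 males and 18 females labelled HET, in all 81 males and 70 females, processed on 3 plates of 49, 46 and 56 mice. Nothing in the labels says which mice were littermates. An SD given for WT, for HET or for all mice is over these numbers.

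The tissue carried the marker transcripts of skin. The mean log2 level of 9 keratinocyte markers lay between 10.4 and 11.1 in every mouse, and that of 7 fibroblast markers between 8.43 and 10.5. The 7 neutrophil markers had a mean of 3.79 ± 0.55 (SD) in WT mice and reached 5.88 in 1 mouse, and the 4 B lymphocyte markers stayed at or below 3.38. In whole skin, fewer cells of a type and less RNA per cell cannot be told apart. Some mice stood apart within the family itself. In 130 mice there was no chemokine or receptor more than 3 SD above its mean after genotype, sex and plate were fitted, but in 5 mice there were at least 4. All 5 were WT, 3 of them males, and they lay on all 3 plates. The counts of pairs, the strongest pair correlations, the spreads and the likeness to other genes are also given without them. They were picked for their high member values, so that leaving them out lowers spread and tails by construction. Of the 2 arrays with the outlier label, 1 had Ccl11, Cx3cl1, Cxcl12 and Cxcl14 below the range of the others, and the other had no member outside it.

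All values are log2 probe set levels. Because probe sets differ in brightness, levels are compared between mice and not between genes. Of the 52 members, 15 had means below 3.43, the lower quartile of all gene means, where a small log2 difference is less certain. Among the ligands, the probe set means of Cxcl14, Ccl11, Cxcl12, Ccl6, Cxcl16 and Ccl25 were the highest on the arrays. Cxcl14, a ligand made by resting epithelium, lay at 9.16 ± 0.24 (SD, all mice), with the lowest mouse at 8.54 and the highest at 9.83. Ccl11, also called eotaxin, which attracts eosinophils through Ccr3, lay at 6.87 ± 0.44 (SD), from 5.70 to 7.90. Cxcl12, the ligand of Cxcr4 and the scavenger Ackr3, lay at 6.79 ± 0.32 (SD), and its highest mouse at 7.68. These 3 were well expressed in every mouse. Ccl6, a mouse CC ligand of myeloid cells, lay at 6.47 ± 0.53 (SD). Cxcl16, the transmembrane ligand of Cxcr6, lay at 6.42 ± 0.32 (SD), and Ccl25, the ligand of Ccr9, at 6.09 ± 0.32 (SD).

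Among the receptors, Cxcr2, the receptor of neutrophil-attracting CXC ligands, had the highest probe set mean, 5.83 ± 0.77 (SD), and ran from 4.55 to 8.08. Ccr7, which guides dendritic cells to lymph nodes, lay at 5.30 ± 0.22 (SD), in a narrow range from 4.85 to 5.97. Cxcr4 lay at 5.19 ± 0.36 (SD) and Ccr9 at 4.78 ± 0.56 (SD). Cxcr2 and Ccr9 therefore differed between mice much more than Ccr7 did. The plot of levels shows the mean and range of each member.

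The remaining members follow by role. Of the interferon-induced ligands of Cxcr3, Cxcl10 lay at 4.26 ± 0.28 (SD), Cxcl11 at 3.07 ± 0.24 (SD) and Cxcl9 at 2.74 ± 0.45 (SD). Cxcl13, which draws B lymphocytes through Cxcr5, had a median of 4.12 but reached 6.93 in 1 mouse. Cxcl15 lay at 2.21 ± 0.19 (SD), Ccl26 at 2.39 ± 0.24 (SD) and Ccr1l1 at 2.49 ± 0.22 (SD). Ccl4, a ligand made by activated myeloid and T cells, lay at 2.95 ± 0.22 (SD), and Ccl5, which attracts T cells, at 4.31 ± 0.24 (SD). Ccl28, the epithelial ligand of Ccr10, lay at 5.05 ± 0.29 (SD) and Ccl22, a ligand of Ccr4, at 5.15 ± 0.53 (SD). Cxcl17, Xcl1 and Ccl1 had means of 4.19, 4.31 and 3.63. Cx3cr1, a receptor of resident macrophages, lay at 4.13 ± 0.34 (SD), and Xcr1, a receptor of cross-presenting dendritic cells, at 3.45 ± 0.28 (SD). The receptors carried by T cells, Ccr4, Cxcr3 and Cxcr6, had means of 3.48, 3.60 and 4.05, and Cxcr1, Ccr3 and Ccr6 of 3.21, 2.82 and 3.09.

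**Figure D1:**
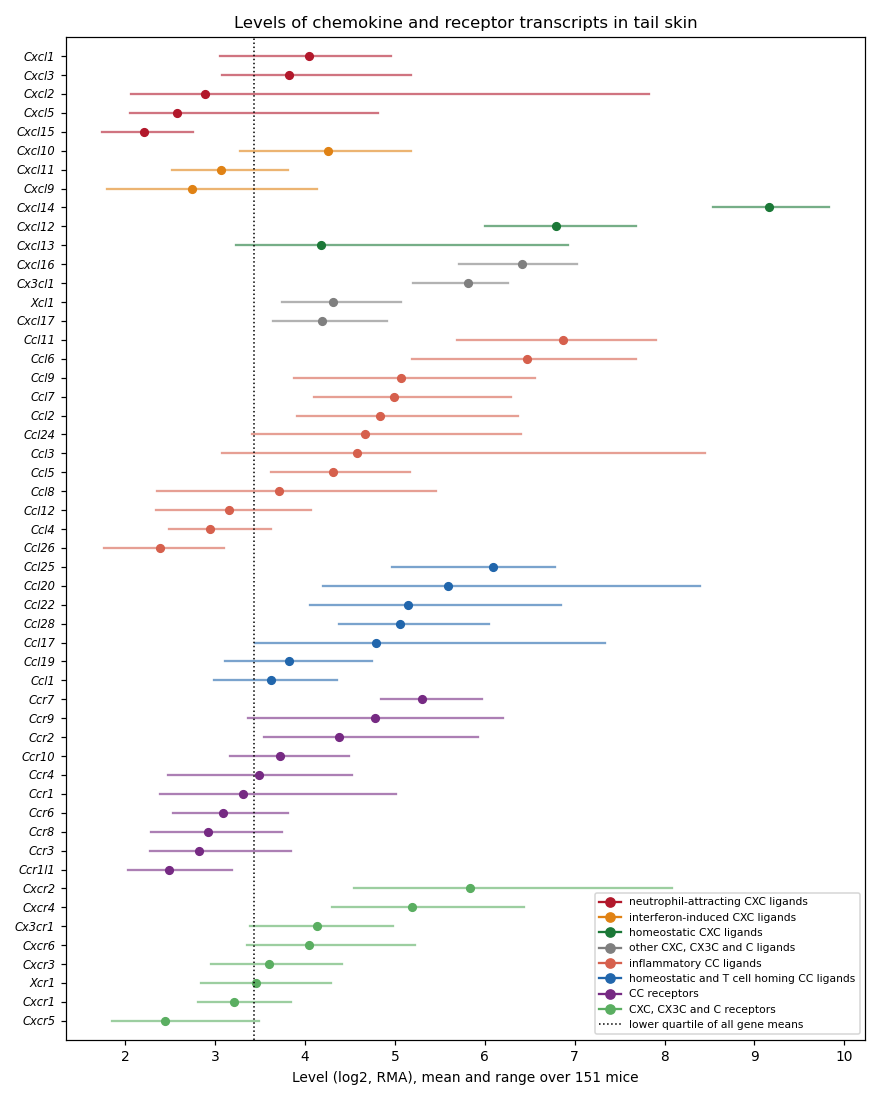
Mean (point) and lowest to highest value (line) of each of the 52 members over all mice compared on the log2 scale, coloured by role. Cxcl14 lies at 9.16 and Cxcl2 has the longest line, from 2.07 to 7.83; the dotted line marks the lower quartile of all gene means at 3.43.

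The first comparison asked whether skin with 1 intact copy of Hras differed from WT skin in these transcripts. No member was called between HET and WT mice, by limma with genotype, sex and plate in 1 model and a Benjamini-Hochberg adjusted p under 0.05 over 18810 genes. Of all genes, 0.112% were called. At an unadjusted p under 0.05 there were 8 members, 15.4% of the 52, against 6.57% of all genes. The members leaned towards lower levels in HET mice: 38 of 52 differences were below 0, with a median of -0.03 against a median near 0 over all genes. Within plates the lean was uneven, with 28, 21 and 19 of 52 differences above 0 on plates 1, 2 and 3. Without the 5 mice that stood apart, 17 of 52 were above 0. Then 6 members had an unadjusted p under 0.05 by limma, against 1198 of 18810 genes.

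Cxcl3, a ligand of Cxcr2, had the smallest genotype p. It ran from 3.35 through a median of 3.83 to 5.17 in WT mice and from 3.08 through 3.69 to 4.14 in HET mice. The groups overlapped over most of their range, and the highest values were WT. The 3 mice more than 3 SD above the Cxcl3 mean, at 5.17, 5.17 and 4.85, were males among the 5 that stood apart. The difference was -0.17 ± 0.05 (SE, log2; 95% interval -0.27 to -0.07; limma adjusted p = 0.30). Cxcl14 differed by -0.11 ± 0.04 (SE, adjusted p = 0.63), with means of 9.08 ± 0.21 (SD) in HET and 9.19 ± 0.25 (SD) in WT mice. Ccl24, or eotaxin-2, differed by -0.26 ± 0.11 (SE, adjusted p = 0.68). For Ccl24 the medians were 4.52 in HET and 4.69 in WT mice, within overlapping ranges. Ccl8, a ligand of Ccr8 in the mouse, differed by -0.24 ± 0.11 (SE, adjusted p = 0.72). Cxcl12 differed by -0.13 ± 0.06 (SE, adjusted p = 0.72). None of these passed the test.

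By role, 0 of 5 neutrophil-attracting CXC ligands, 0 of 3 homeostatic CXC ligands and 1 of 12 inflammatory CC ligands were above 0 in HET mice. Of the 12 inflammatory CC ligands the median difference was -0.09. The 7 homeostatic and T cell homing CC ligands had 5 above 0, with a median of 0.02, and the 10 CC receptors had 5, with a median of 0.00. In the remaining roles, 0 of 3 interferon-induced ligands, 1 of 4 other ligands and 2 of 8 CXC, CX3C and C receptors were above 0. These role counts were not taken without the 5 mice that stood apart, all WT. Some marker lists of other cells moved with this lean and others did not. All 12 macrophage and dendritic cell markers had differences below 0, with a median of -0.12, and their mean level ran from 5.07 to 6.78 in HET and from 5.37 to 7.10 in WT mice. All 9 hair shaft and root sheath markers were below 0 too, with a median of -0.25. Of 7 neutrophil markers 4 were above 0, with a median of 0.01. Of 9 keratinocyte markers 7 were above 0 (median 0.02), and of 8 skeletal muscle markers 6 were (median 0.12). None of these markers passed the test, and their part in the chemokine values was not tested. Fitted by sex, genotype called 0 members in males (2 at an unadjusted p under 0.05) and 0 in females (7), by limma.

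Precision limits what these comparisons can show. Standard errors of the genotype differences ran from 0.04 to 0.18, and 50 of 52 intervals lay within 0.5 log2 units of 0. The exceptions were Cxcl2 (from -0.65 to 0.07) and Ccl3 (from -0.59 to -0.02), the members that vary most between mice. The plot of differences shows each interval.

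**Figure D2:**
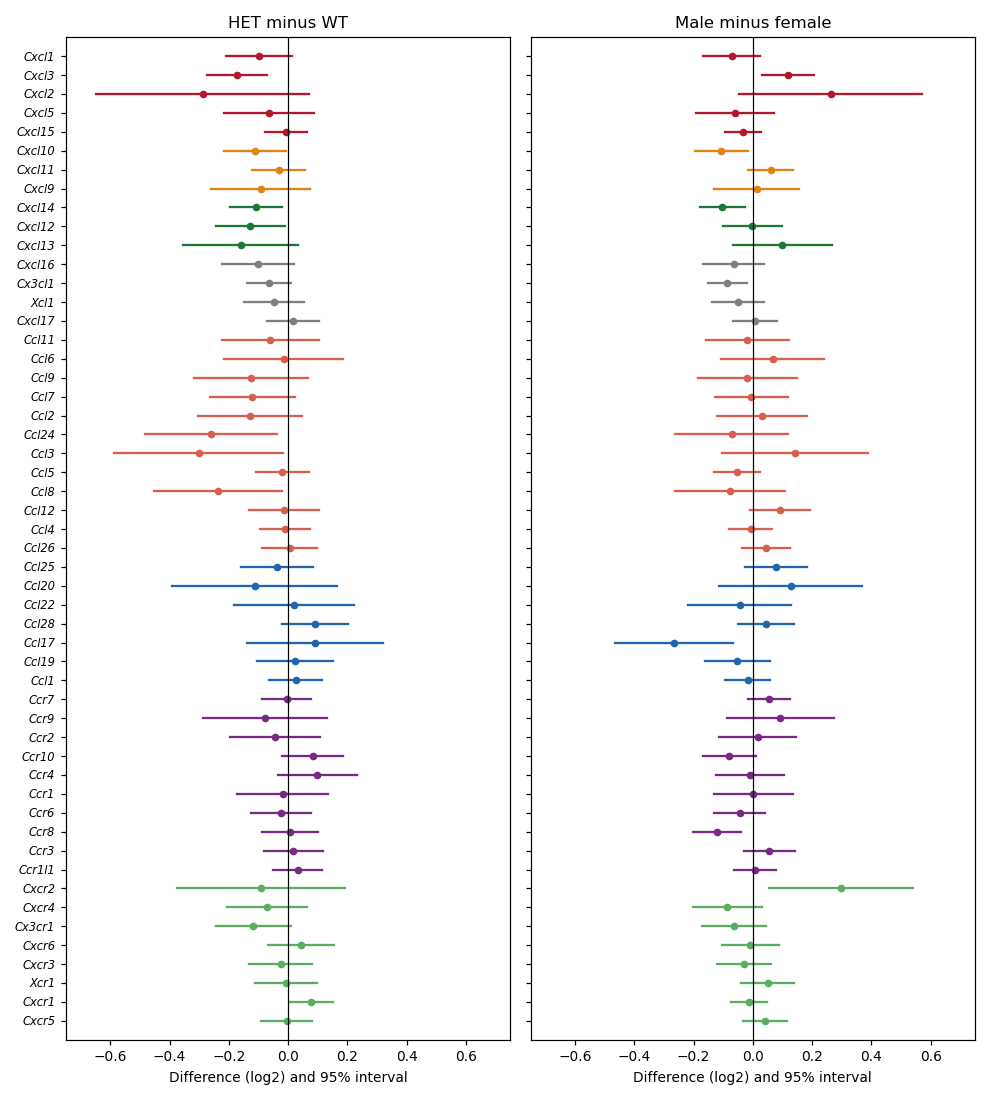
Differences of HET minus WT (left) and male minus female (right) on the log2 scale for the 52 members, with 95% intervals from limma; colours are the roles of the plot of levels. Most points of the left panel lie below 0, where 38 of 52 are, and no member passed the adjusted threshold in either panel.

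The second comparison was between males and females. No member was called by sex, against 3.62% of all genes, by the same limma test. At an unadjusted p under 0.05 there were 7 members, 13.5% of the 52, against 16.4% of all genes. The directions were balanced, with 23 members above 0 in males and 29 below.

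Ccr8, a receptor of skin-homing T cells, had the smallest p. It ran from 2.29 through a median of 2.97 to 3.74 in females and from 2.45 through 2.86 to 3.46 in males. The ranges overlapped almost entirely, at a level below the lower quartile of gene means. The difference was -0.12 ± 0.04 (SE, adjusted p = 0.072). On plate 3 alone Ccr8 was called, at -0.28 ± 0.06 (SE, adjusted p = 0.0097), whereas it differed by -0.02 on plate 1 and -0.03 on plate 2. Ccl17, a ligand of Ccr4 made by dendritic cells, had the largest difference of the 5 smallest p-values, -0.27 ± 0.10 (SE, adjusted p = 0.13). Its medians were 4.86 in females and 4.67 in males. Cxcl14 differed by -0.10 ± 0.04 (SE, adjusted p = 0.12) and Cx3cl1, the membrane-bound ligand of Cx3cr1, by -0.09 ± 0.03 (SE, adjusted p = 0.13). Among the members with the 5 smallest p-values, Cxcl3 was the exception in direction, at 0.12 ± 0.04 (SE, adjusted p = 0.12) in males. Its 3 mice more than 3 SD above the mean were WT males among the 5 that stood apart. Outside those members, Cxcr2 had the largest sex difference of the family, 0.30 higher in males, and did not pass the test.

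Other cell markers did differ by sex. Of 7 mast cell markers 4 were lower in males, with differences of -0.19 for Kit, -0.33 for Cpa3 and -0.30 for Mcpt4. Of 5 antigen-presentation genes, Cd74 and H2-Ab1 were lower, with differences of -0.23 and -0.20, while H2-Eb1 and Ciita differed by 0.06 and 0.01 and did not pass. Of 7 fibroblast markers, Col3a1 (0.26), Col1a1 (0.24) and Col1a2 (0.20) were higher in males and Lum (-0.28) was lower. Of 9 markers of the hair shaft and inner root sheath, Foxn1 (-0.17) and Krt25 (-0.36) were lower, and the median difference of the 9 was -0.29 with none above 0. Of 7 neutrophil markers, S100a8 alone passed, higher in males by 0.94 ± 0.29 (SE, limma adjusted p = 0.039). The median difference of the 7 was 0.05. The part of these cell markers in the chemokine values was not tested. Of 35 measured partners of the chemokine pathway (scavenger receptors, G proteins, kinases, arrestins and the like), 2 were lower in males, Cd74 and the receptor kinase Grk5 (-0.16 ± 0.05, SE, adjusted p = 0.045). Of all genes 3.62% were called by sex, so that 2 of 35 is near the background. None was called by genotype.

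Whether the genotype difference itself depended on sex was tested with an interaction term. It called 0 members and 0 of 18810 genes (0%), by limma. At an unadjusted p under 0.05 it held 0 members and 895 genes, 4.76% of all. The smallest p-values were those of Ccr8 (-0.17 ± 0.09, SE), Cxcl16 (0.21 ± 0.12, SE), Cxcl9 (-0.29 ± 0.17, SE), Ccl26 (0.14 ± 0.09, SE) and Cxcr5 (-0.13 ± 0.09, SE). All had an adjusted p of 0.998 by limma. Plate means differed little in these genes. By limma, 0 members were called by plate, against 0.0213% of all genes, and 0 had an unadjusted p under 0.05, against 0.808%. That share of all genes lies below the 5% that such a threshold gives by chance. Whether the deposited values had been adjusted for plate is not stated, so this test cannot show how far the plates differed at first. The smallest plate p-values were those of Cxcl10, Cxcl12, Ccl3, Ccl5 and Cxcr4, whose largest differences between plates were 0.12, 0.13, 0.34, 0.10 and 0.13. Spread was not tested between plates and was not alike for some members. The SD of Ccl5 was 0.24, 0.09 and 0.31 on plates 1, 2 and 3, and that of Ccl3 0.86, 0.47 and 0.90. Ccl17 was instead widest on plate 2, with SDs of 0.58, 0.73 and 0.58.

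The members varied more between mice than most genes did. After genotype, sex and plate were fitted, the members' median residual SD was 0.31 against 0.22 over all genes. Of the members 27 (51.9%) had a residual SD over 0.3, against 18.6% of all genes, and 17 lay above the 90th percentile of genes of like mean level. A skewness above 1, a tail of mice with high values, was found in 7 members (13.5%) against 2.68% of all genes. Without the 5 mice it was found in 3 members (5.77%) against 2.51% of all genes, while 27 members still had a residual SD over 0.3, against 17.4% of all genes.

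Cxcl2, a neutrophil-attracting ligand induced in inflamed tissue, had the largest residual SD, 0.97. It ran from 2.07 through a median of 2.59 to 7.83, a range of 5.76 log2 units. The median lay below the lower quartile of gene means, and 4 WT mice, all among the 5 that stood apart, lay more than 3 SD above the mean, at 7.83, 7.72, 7.28 and 6.81. Ccl3, a ligand of Ccr1, had a residual SD of 0.77, and the same 4 mice were its highest, at 7.80, 8.45, 7.34 and 7.43 in that order. Ccl20, the ligand of Ccr6 that keratinocytes make, had a residual SD of 0.75 and a skewness of 1.10. Of its 3 highest mice, at 8.39, 8.30 and 8.02, 1 was among those 4. Ccl17 had a residual SD of 0.62. Without the 5 mice the residual SD was 0.64 for Cxcl2 and 0.58 for Ccl3, and Cxcr2 had the largest, 0.72.

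Cxcr2 and Ccl24 varied in another way. Cxcr2 had a residual SD of 0.76 and Ccl24 of 0.60, but no mouse lay more than 3 SD above the mean of either, and the excess kurtosis was negative, -0.71 and -0.57. A negative value describes light tails, as in a flat spread or one with separate peaks. Which of these shapes applied was not tested. Cxcl2 had an excess kurtosis of 10.1. The histograms show both kinds of spread.

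**Figure D3:**
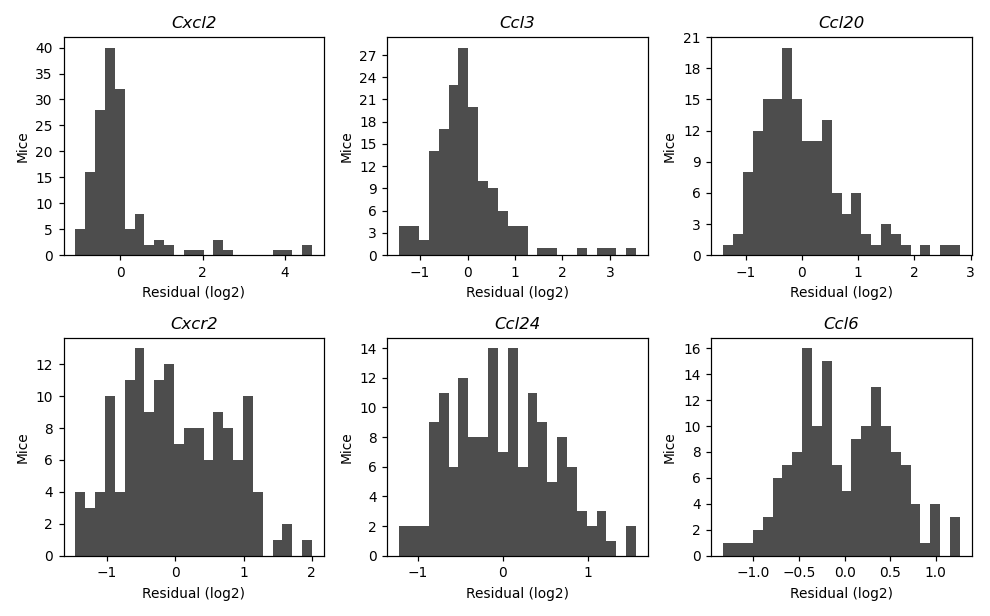
Residual log2 levels of 6 members over all mice compared after genotype, sex and plate; bar height counts mice. Cxcl2, Ccl3 and Ccl20 have a tail of high mice, whereas Cxcr2, Ccl24 and Ccl6 spread broadly with no mouse more than 3 SD above the mean.

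Several neutrophil-attracting ligands, Cxcl1 and Cxcl2 among them, are known targets of the transcription factor NF-kB. Their promoters are shown because Cxcl2 varied with Cxcl1 and Cxcl3 over mice. The 250 bases before each start are printed from the RefSeq promoter table (GRCm38.p6), 5′ to 3′ on the gene's strand. Capitals mark matches on either strand to an NF-kB type motif, which reads GGG, then NN (any bases), then TTTCC. Ccl3 is shown as a member that varied with Cxcl2 and holds no match.
Cxcl2, chr5:90903649-90903898, plus strand: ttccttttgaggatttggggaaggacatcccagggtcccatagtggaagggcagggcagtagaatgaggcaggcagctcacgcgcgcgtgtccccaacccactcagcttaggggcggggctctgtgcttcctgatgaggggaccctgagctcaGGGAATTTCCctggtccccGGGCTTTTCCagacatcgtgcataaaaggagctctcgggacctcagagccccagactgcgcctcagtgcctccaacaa
Cxcl1, chr5:90890995-90891244, plus strand: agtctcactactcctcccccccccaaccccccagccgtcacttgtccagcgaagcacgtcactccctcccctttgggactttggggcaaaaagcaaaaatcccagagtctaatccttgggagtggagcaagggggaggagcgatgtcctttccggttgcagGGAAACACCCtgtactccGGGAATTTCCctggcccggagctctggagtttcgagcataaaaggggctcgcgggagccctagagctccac
Cxcl3, chr5:90785851-90786100, plus strand: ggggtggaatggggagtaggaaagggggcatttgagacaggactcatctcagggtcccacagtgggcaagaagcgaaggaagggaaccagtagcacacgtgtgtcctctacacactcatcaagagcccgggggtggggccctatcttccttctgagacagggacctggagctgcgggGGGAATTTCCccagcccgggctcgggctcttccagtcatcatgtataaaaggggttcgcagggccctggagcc
Ccl20, chr1:83116516-83116765, plus strand: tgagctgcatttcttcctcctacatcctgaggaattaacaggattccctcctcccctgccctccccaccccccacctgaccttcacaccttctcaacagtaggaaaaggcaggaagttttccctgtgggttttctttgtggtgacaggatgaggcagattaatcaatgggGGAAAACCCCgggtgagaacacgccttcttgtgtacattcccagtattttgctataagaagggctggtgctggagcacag
Ccl3, chr11:83649379-83649628, minus strand: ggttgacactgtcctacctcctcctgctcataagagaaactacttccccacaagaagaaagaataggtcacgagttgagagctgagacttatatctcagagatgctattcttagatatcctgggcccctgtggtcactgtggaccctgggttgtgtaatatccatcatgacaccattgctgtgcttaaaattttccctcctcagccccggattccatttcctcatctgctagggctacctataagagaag

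Cxcl2 and Cxcl1 held 2 matches each, and Cxcl3 and Ccl20 held 1 each. The promoter of Cxcl15 held none. No RefSeq promoter was available for Cxcl5, so it was not searched. The match nearest the start ended 68 bases before it in Cxcl2, 61 in Cxcl1, 63 in Cxcl3 and 70 in Ccl20. Of the 52 members 38 had a promoter in the table. The motif lay in 6 of these 38 (15.8%: also Ccl9 and Ccr3), against 378 of 27025 promoters of the same length (1.40%). A match is a description of letters and not a measured binding site. A TATAAA match lay in 11 of 38 member promoters (28.9%) against 12.97% of all. The interferon type motif, which reads TTTC, NN and TTTC, lay in 3 of 38 (7.89%: Ccl19, Cxcl10 and Cxcl14) against 3.04%. The AP-1 type motif TGANTCA lay in 4 of 38 (10.5%) against 6.87%. Both strands were searched for each motif.

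Which chemokines rose and fell together was asked over all mice compared, on the residual levels. Of 1326 pairs of members, 139 (10.5%) passed a two-sided permutation test of Pearson's r with an adjusted p under 0.05, 128 positive and 11 negative. The share among pairs of all genes was not computed, here or for the neighbour, ligand and receptor and marker counts below. Without the 5 mice that stood apart, 79 passed. By Spearman's rho, which a few extreme mice move less, 73 passed. The neutrophil-attracting Cxcl5 and the monocyte-attracting Ccl2 each varied positively with 17 other members. Ccl3 varied with 15 and the monocyte receptor Ccr2 with 15, whereas Ccl5, Ccl19, Cxcl11, Cxcr5 and Cxcr6, among others, passed with none.

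Of the 6 highest correlations, 5 were among Cxcl2, Cxcl3, Cxcl5, Ccl3 and Ccr1, which serve neutrophil and monocyte recruitment. Ccl3 and Cxcl2 had the highest r, 0.766 (adjusted p = 0.00032, permutation), with rho of 0.410 and r of 0.823, 0.543 and 0.763 on plates 1, 2 and 3. It was 0.675 after leaving out the 2 mice with the most extreme Ccl3 levels, and 0.552 without the 5 mice. Cxcl2 and Cxcl5 had r of 0.716, rho of 0.323 and r of 0.521 without the 5 mice. Both correlations were smaller without those mice and still passed the test. Cxcl1 and Cxcl2 had r of 0.421 and rho of 0.354 (0.324 without the 5 mice). Cxcl2 and Cxcl3 had r of 0.640 and rho of 0.274, and Ccl3 and its receptor Ccr1 had r of 0.623 and rho of 0.421. These r were 0.391 and 0.401 without the 5 mice. Ccr1 and Cxcl2 had r of 0.610 (0.328 without the 5 mice). Their rho of 0.228 did not pass (adjusted p = 0.073, permutation), and on plate 2 r was 0.152. Each r of these pairs had an adjusted p of 0.00032, and the smallest p that the permutations can give is 1e-05. With the 2 mice of most extreme level of the first named gene left out, r was 0.662 for Cxcl2 and Cxcl5, 0.484 for Cxcl2 and Cxcl3, 0.524 for Ccl3 and Ccr1 and 0.495 for Ccr1 and Cxcl2.

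Ccl6 and Ccl9, neighbouring genes of chromosome 11 that encode mouse CC ligands of myeloid cells, did not need the extreme mice. Their r was 0.712 and rho 0.670, with r of 0.737, 0.677 and 0.723 on plates 1, 2 and 3 and 0.690 without the 5 mice. It was 0.692 after leaving out the 2 mice with the most extreme Ccl6 levels. The plot of 4 pairs shows the contrast between an even cloud and a few high mice.

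**Figure D4:**
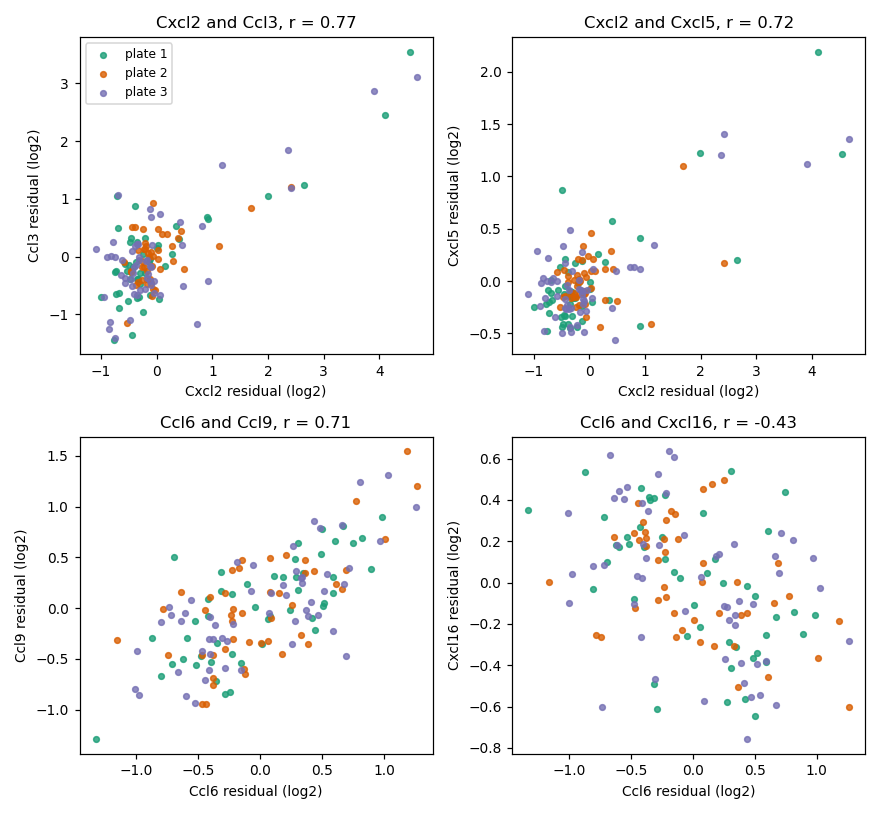
Residual log2 levels of 4 pairs of members, 1 point per mouse compared, coloured by plate. The r of 0.77 for Cxcl2 and Ccl3 includes a few mice far to the upper right, whereas Ccl6 and Ccl9 (0.71) and Ccl6 and Cxcl16 (-0.43) form even clouds.

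Cxcl16 was in 2 of the 3 most negative pairs. Ccl6 and Cxcl16 had r of -0.428 and rho of -0.445 (adjusted p = 0.00032 and 0.00066, permutation), with r of -0.477, -0.410 and -0.402 on plates 1, 2 and 3 and -0.405 after leaving out the 2 mice with the most extreme Ccl6 levels. Ccl9 and Cxcl16 had r of -0.308 and rho of -0.309 (adjusted p = 0.0022, permutation), and -0.312 with 2 such mice left out. Ccl25 and Ccl9 had r of -0.286 and rho of -0.248 (adjusted p = 0.0066, permutation), and -0.272 without them. Ccl6, Ccl9 and Cxcl16 all lie on chromosome 11, and Ccl6 is 248 measured genes from Cxcl16 in the RefSeq order.

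**Figure D5:**
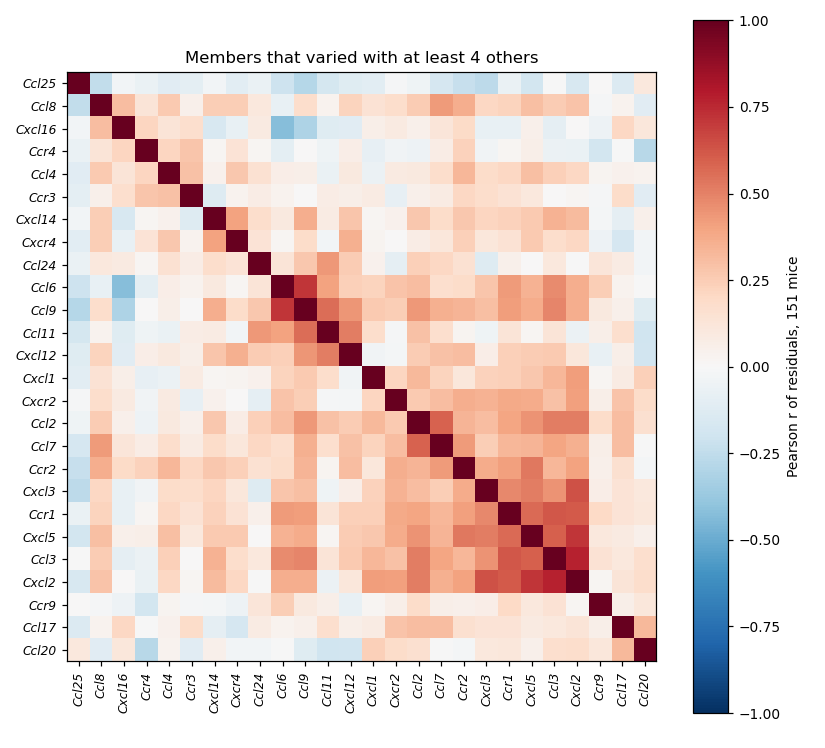
Pearson r of residual levels over all mice compared for the 26 members that passed the pair test with at least 4 others, ordered by average-linkage clustering; red is positive and blue negative. Cxcl2, Ccl3, Cxcl5, Ccr1 and Cxcl3 form the darkest block, and Cxcl16 is blue against Ccl6 and Ccl9.

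Many chemokine genes lie in clusters, so neighbours were counted apart. Of 62 pairs no more than 5 measured genes apart, 15 (24.2%) passed and all were positive, with a median r of 0.10. Of 156 pairs farther apart on the same chromosome, 10.9% passed, with a median r of 0.02. Of 1108 pairs on different chromosomes, 9.66% passed, with a median r of 0.03. The differences between these shares were not tested.

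A ligand and its receptor were each compared over mice for 31 known pairs, with p-values adjusted over these. Of them 12 passed, all positive, and 10 passed without the 5 mice. These involved the receptors Ccr1, Ccr2, Cxcr2 and Cxcr4 and the scavenger Ackr3. Ccr1 varied with Ccl3, Ccl6 (r = 0.428, rho = 0.339) and Ccl9 (r = 0.415, rho = 0.298). Ccr2, the receptor of inflammatory monocytes, varied with Ccl7 (r = 0.427, rho = 0.326), Ccl2 (r = 0.341, rho = 0.282) and Ccl12 (r = 0.214, rho = 0.150). Cxcr2 varied with Cxcl2 (r = 0.411, rho = 0.237), Cxcl5 (r = 0.373, rho = 0.218), Cxcl3 (r = 0.351, rho = 0.223) and Cxcl1 (r = 0.217, rho = 0.173). Cxcl12 varied with Cxcr4 (r = 0.356, rho = 0.312) and with Ackr3 (r = 0.251, rho = 0.252). With 2 extreme mice of the ligand left out, r ran from 0.165 (Ccl12 with Ccr2) to 0.524 (Ccl3 with Ccr1). Cxcl12 with Cxcr4 had r of 0.346, 0.416 and 0.330 on plates 1, 2 and 3. By rho, Cxcl1 with Cxcr2 (adjusted p = 0.086) and Ccl12 with Ccr2 (adjusted p = 0.15) did not pass by permutation. Without the 5 mice, Cxcl1 with Cxcr2 (adjusted p = 0.20) and Ccl12 with Ccr2 (adjusted p = 0.23) did not pass by permutation. On plate 1 alone Ccl12 and Ccr2 had r of -0.023. The other pairs did not pass. Among them, Ccl19 and Ccr7 had r of 0.144, Ccl17 and Ccr4 -0.0006, Cxcl13 and Cxcr5 -0.103, and Ccl20 and Ccr6 -0.018. Ccl11 and Ccr3 had r of 0.075, and Cx3cl1 and Cx3cr1 0.060. The means of Cxcr5 and Ccr6 lay below the lower quartile of gene means.

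Members were also set against the mean standardised residual of 15 lists of cell and response markers. Of 780 correlations, 168 passed with p-values adjusted over all 780, 138 positive and 30 negative, and 144 passed without the 5 mice. All leukocytes, neutrophils and macrophage and dendritic cells had the most positive members, 21, 19 and 18 of 52. These marker lists and the members share the same RNA and the same arrays.

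Cxcl2 had r of 0.610 and rho of 0.319 with the neutrophil list (0.735, 0.407 and 0.612 on plates 1, 2 and 3) and 0.474 without the 5 mice. Ccr2 had r of 0.634 and rho of 0.490 with all leukocytes. Ccl9 had r of 0.675 and rho of 0.634 with macrophage and dendritic cells, and Cxcr2 had r of 0.404 and rho of 0.298 with neutrophils. Each of these 4 was positive on all 3 plates, and with 2 extreme mice of the member left out they were 0.494, 0.559, 0.648 and 0.332. Ccl11 had r of 0.719 and rho of 0.733 with the endothelial list (0.777, 0.769 and 0.639 on plates 1, 2 and 3) and -0.572 with keratinocytes. Cxcl12 had r of 0.633 with endothelial and 0.617 with fibroblast markers, and -0.534 with keratinocytes. Cxcr4 had r of 0.464 and rho of 0.517 with the list of hair shaft and root sheath genes. Ccr6 had r of 0.284 and Cxcl16 of 0.354 with the Langerhans cell list, and Cxcr6 had r of 0.350 with the T lymphocyte list. Their adjusted p-values were 0.0030, 0.00014 and 0.00036 by permutation, and those of the correlations named before them 0.00014. With the Langerhans cell list 3 members passed as positive and 3 as negative. That list held Cd207, Epcam, Itgae and Cd24a, read in whole skin and not in sorted cells. The mean of Ccr6 lay below the lower quartile of gene means. The part of cell content in any of these values was not tested.

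The genes outside the family most like the most variable members were listed by r of residuals over all mice compared, as a description. For Cxcl2 these were Il1b, which encodes interleukin 1 beta (r = 0.829, rho = 0.333, and r = 0.634 without the 5 mice), the inflammasome gene Nlrp3 (0.779, rho = 0.367, 0.491 without them) and the myeloid receptor Trem1 (0.733, rho = 0.350, 0.468 without them). For Ccl3 they were Il1b (0.726, rho = 0.399) and 2 lectin receptors of myeloid cells, Clec4d (0.691, rho = 0.418) and Clec7a (0.684, rho = 0.471). These r were 0.492, 0.474 and 0.484 without the 5 mice. For both members, rho was well below r for each of these genes. For Ccl20 they were Zc3h12a, an RNase that restrains inflammation (r = 0.711, rho = 0.694), the beta-defensin Defb3 (0.534) and Slc5a1 (0.533). Here r and rho were close.

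Cxcr2 was most like Dnpep (0.618), Eef1b2 (0.616) and Serpinb3c (0.566), which all lie on chromosome 1 as Cxcr2 does. That observation was made after the values were seen, and the same count was taken for every member. Of the 10 genes most like each member by the size of r, 10 lay on the member's own chromosome for Ccl6 (chromosome 11) and Ccl19 (chromosome 4), and 9 for Ccl24 (5), Cxcl16 (11) and Cxcr2 (1). It was 7 for Ccr9 (9) and 5 for Ccl22 (8), and 26 members, Cxcl2 and Ccl20 among them, had none. Between 4.74% (chromosome 8) and 7.81% (chromosome 11) of all genes lie on each of these chromosomes. The alleles that each mouse inherited at these genes were not analysed here, and whether a probe set reads FVB/N and Mus spretus transcripts equally was not tested.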

How the data were processed

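Per the submitters' processing notes, the authors summarised each Affymetrix probe set with RMA, which corrects background, normalizes and returns log2 levels. Its version is not stated. Of 35556 probe set rows, 171 were empty. Probe sets with 1 gene symbol were kept, with the highest mean per gene (18810 genes). Array medians ran from 4.67 to 4.89. Precision is limited by the number of mice.

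Groups came from the genotype, sex and plate labels. The group tests came from limma 3.58.1 (R 4.3.3), with a variance trend in eBayes. Correlations used residuals after genotype, sex and plate, in Python 3.11.15 (scipy 1.17.1), with permutation tests of 100000 draws and Benjamini-Hochberg adjustment. Scripts were tested on simulated data. The members, lists and roles were chosen with earlier results of these data known. Full values are given for the 5 smallest p-values where none is called, the highest means, the largest residual SDs and the strongest pairs. Promoters and gene order came from RefSeq (GRCm38.p6). Genotype labels were not checked against Hras, whose level is not reported here. No arrays were identical (highest correlation 0.986). Ccl19 had 5 probe sets and Ccl25 had 2.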

Additional observations from a re-analysis of the deposited data

How the results depend on the processing

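No paired analysis was possible because the labels give no replicate numbers shared between groups. The counts of members called by genotype, sex, interaction and plate were 0 under the alternatives run, except that plate 3 alone called 1 by sex, Ccr8. These alternatives were the outlier-labelled arrays included, centring, quantile normalization, a filter on low genes, the probe set with the lowest mean, no variance trend, no plate term, and single plates, sexes or genotypes. Of 1326 member pairs, 139 passed; 73 passed by Spearman, 36, 19 and 64 on plates 1, 2 and 3 alone, and 79 without the 5 mice, an alternative chosen after seeing the data. Ligand and receptor pairs fell from 12 to 7 on plate 2, and marker correlations from 168 to 46, 78 and 74 on plates 1, 2 and 3. Plates hold fewer mice. Signs turned for Ccl8 by genotype on plate 2 (0.0504), Cxcl14 by sex on plate 1 (0.0118), the Ccr8 interaction on plate 2 (0.0397), the Cxcr5 interaction on plate 1 (0.0676) and Ccl12 with Ccr2 on plate 1 (-0.023); the cause was not tested. The 2 probe sets of Ccl25 differed in sign by genotype (-0.04 and 0.03), and neither was called. Of single results, 27 alternatives of the named pair correlations and 38 of the named marker correlations kept the sign but missed the threshold. Levels near the lower quartile of gene means, as for Ccr8, limit what a small difference can show.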
